A study of Mus musculus with 8 samples.

Results

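The 38 genes described here carry glucose into the cell, break it down to pyruvate and lactate, gate pyruvate at the mitochondrion, or store glucose as glycogen. They were chosen by name, from knowledge of the pathway, as the facilitative glucose carriers, the glycolytic enzymes with their tissue isozymes, the PFKFB enzymes that set the level of fructose 2,6-bisphosphate, the lactate dehydrogenases and monocarboxylate carriers, the pyruvate dehydrogenase kinases and the enzymes of glycogen synthesis. Earlier results of these data were known when the list was made. All 38 had a probe among the 36518 genes on the array, and all 38 passed the filter on dim probes, as did 24412 genes in total.

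The arrays compared outflow tracts of mouse embryos lacking Raldh2 (gene symbol Aldh1a2) with those of wild type embryos. The outflow tract is the vessel that carries blood out of the embryonic heart. Raldh2 is the enzyme that makes most retinoic acid in the early embryo. The 4 knockout pools (Raldh2-/-, pools 1, 2, 3 and 7) and the 4 wild type pools (pools 1, 2, 5 and 7) each held RNA of 4 tracts dissected at E10.5, mid-gestation. Both genotypes came from mothers fed retinoic acid, which carries the knockout past its early lethality, so the comparison is between rescued knockouts and equally supplemented wild types, not with untreated embryos. The supplement was 0.1 mg per g of food from E7.5 to E8.5, and 50 ng of RNA with an integrity number above 8.0 went into each one-colour array.

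Glycolysis splits glucose into pyruvate and yields ATP without oxygen. In the embryonic heart before birth it supplies much of the energy, and cardiac muscle of this age also holds glycogen. Hypoxia-inducible factors, which act on genes when oxygen is low, are known to bind at many genes of glucose uptake, glycolysis and lactate export, and at Pdk1, whose product keeps pyruvate out of the citric acid cycle. Several enzymes exist as isozymes from separate genes, with forms known from muscle (Pfkm, Pgam2, Eno3), nervous tissue (Aldoc, Eno2), liver (Pfkl, Pklr) or most tissues (Aldoa, Eno1).

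Levels are given on the log2 scale, relative to the 75th percentile of signal on the same array, so 0 is that percentile and 1 unit is a doubling. Values in pools are listed for knockout pools 1, 2, 3 and 7 and wild type pools 1, 2, 5 and 7, in that order, and a fold change is knockout minus wild type in log2, with its SE.

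One array, that of wild type pool 1, did not resemble the other 7, and each comparison is given with and without it. The median of its processed signals was 2020, where the others had 40.0 to 83.0. On it 94.7% of spots were well above background against 53.3% to 63.2%, and its median correlation with the others was 0.759 against 0.978 to 0.989. Its 75th percentile was 4.52 times the median of theirs. All knockout arrays lay in one row of a single slide and all wild type arrays in the other row, and an effect of the row cannot be told apart from one of genotype. Aldh1a2 read 2.02, 2.01, 1.87 and 0.059 in the knockout pools and 1.92, 3.21, 2.98 and 3.65 in the wild type pools, a difference of -1.45 ± 0.55 (limma, adjusted p = 0.735), or -1.79 ± 0.50 without wild type pool 1 (adjusted p = 0.367). Knockout pool 7 was lowest, and wild type pool 1 lay within the knockout range. Whether this probe lies in the deleted part of the gene was not examined.

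The tissue label was checked against its markers. All 7 cardiomyocyte, all 6 endothelial and endocardial and all 6 mesenchymal markers were well above background on all 8 arrays. Without wild type pool 1, all 7 cardiomyocyte markers were below 0 in knockout minus wild type (median -0.18), with Nppa, the atrial natriuretic peptide precursor, at -2.59. Their levels summed to 1480 to 1730 times the 75th percentile in the knockout pools and to 1520 to 2310 in wild type pools 2, 5 and 7, while pool 1 gave 387. None of the 7 erythroid markers was below 0 (median 0.77, summed level 927 to 1470 in the knockout pools and 753 to 1400 in those wild type pools). The 5 epithelial markers were split. The keratins Krt8, Krt18 and Krt19 were below 0 (-0.69, -0.27 and -1.87), while the much dimmer Epcam and Cdh1 were above 0 (1.22 and 0.73, with overlap). The median was -0.27, and the summed level, 36.7 to 54.7 against 51.0 to 85.3, comes mostly from the brighter keratins. No marker passed the test, and the part of these cell types in the results on glucose genes was not tested. In RNA of whole pooled tracts, fewer cells of a type and less RNA per cell cannot be told apart.

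Across the 3 wild type pools other than pool 1, most glucose genes read higher than in the knockout pools. Both the list and this comparison without pool 1 were chosen with earlier results known, so the counts describe the list and do not test it. For 31 of the 38 the difference was below 0, where 40.7% of the 23783 genes tested were, and the median was -0.38 against 0.0531 for all genes. In 18 of the 38 every knockout pool lay below every one of these wild type pools. That separation was seen in 4.88% of all genes, and the reverse, every knockout pool above, in none of the 38 and in 6.54% of all genes. The 18 were the carriers Slc2a1 and Slc2a3, the kinases Hk2, Pfkl and Pfkp, the regulator Pfkfb3, the enzymes Aldoa, Aldoc, Tpi1, Pgk1, Pgam1, Eno1, Eno2 and Pkm2, the lactate carrier Slc16a3, Pdk1, and the glycogen genes Pgm1 and Gbe1.

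No gene passed the test. At a limit of 0.05 on the adjusted p, the limma fit of 7 arrays called 0 of the 38 and 0 of 23783 genes (0.0%). Aldoc came closest among the 38, with an adjusted p of 0.332, and the lowest over all genes was 0.221. At an unadjusted p under 0.05, 17 of the 38 were lower, against 1032 of all genes (4.34%), and 1, Hk3, was higher, against 1477 (6.21%).

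With all 8 arrays the 38 genes had no common direction. The difference was below 0 in 21 of them, against 43.1% of 24412 genes, and the median was -0.0397, against 0.129. No gene was called here either (0.0%), with a smallest adjusted p of 0.735 among the 38 and 0.497 among all genes. At an unadjusted p under 0.05, 3 of the 38 (Slc2a3, Aldoc and Eno2) were lower, against 274 of all genes (1.12%), and none was higher, against 160 (0.655%). Eno2 was the only 1 of the 38 whose 4 knockout values all lay below all 4 wild type values, which held for 1.55% of all genes. None of the 38 had all knockout values above, which held for 3.94%. The difference changed sign in 16 of the 38 when wild type pool 1 was left out. With quantile scaling of all 8 arrays 30 of the 38 were below 0, against 31.9% of all genes, and 15 were lower at an unadjusted p under 0.05, against 1.7%. With array weights, which gave wild type pool 1 a weight of 0.0172 against 0.809 to 5.41 for the others, the counts were 30, against 43.2%, and 17, against 5.21%. With median scaling 5 were below 0, against 17.9% of all genes, and the median was 0.501, against 0.669 for all genes. That upward move was therefore general and not particular to the 38. With pool number as a block 16 were below 0, against 43.5%.

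**Figure D1:**
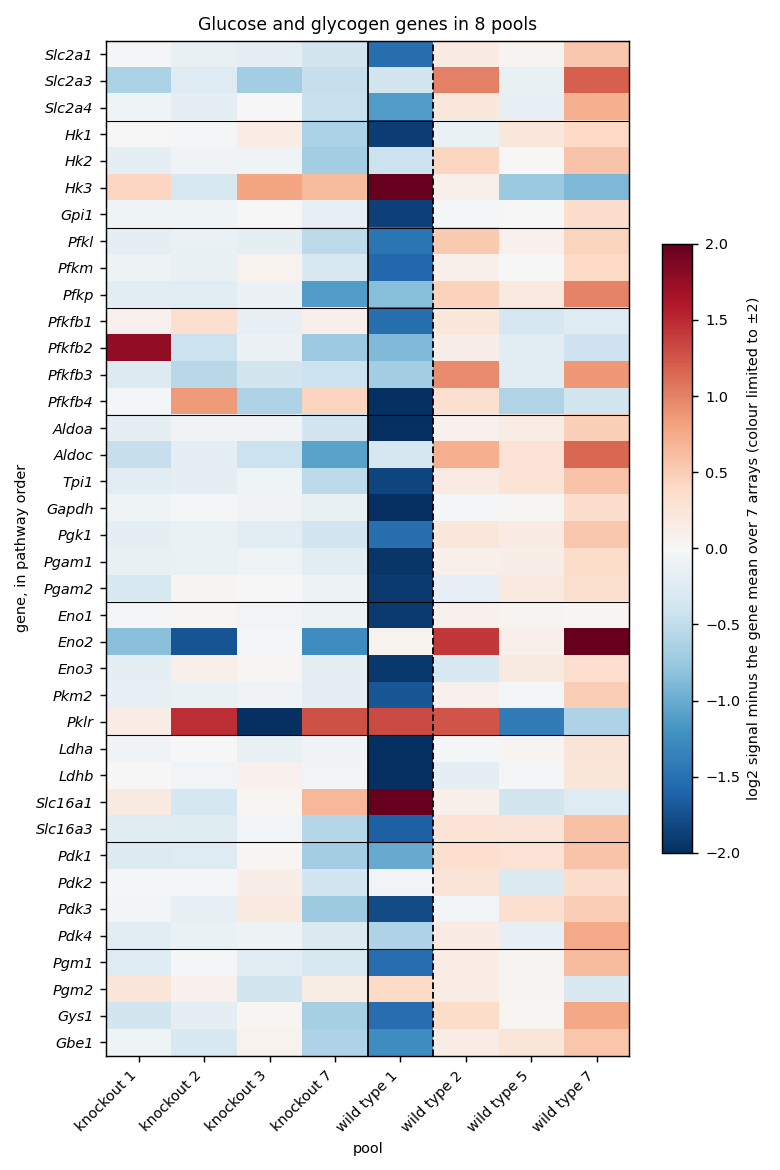
Log2 signal of each of the 38 genes (rows, in pathway order, with lines between the groups of enzymes) in each of the 8 pools (columns), as the deviation from the gene's mean in 7 arrays (wild type pool 1 left out of the mean), with colour limited to ±2. Wild type pool 1 (between the solid and the dashed line) is the lowest of the 8 pools in 28 genes and the highest in 3, and wild type pool 7 is the highest in 28.

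Wild type pool 1 was the lowest of 8 in 28 of the 38 genes, with a median deviation of -1.51 from the mean of the other 7 arrays. The deviations of the other wild type pools were 0.16 in pool 2, 0.051 in pool 5 and 0.46 in pool 7, and those of the knockout pools were -0.13, -0.14, -0.07 and -0.37. Wild type pool 7, with the smallest share of spots above background (53.3%), was the highest in 28 genes. Knockout pool 7, with the lowest Aldh1a2, was the lowest of the 7 in 25. Its array also had the largest share of spots above background of the 7 (63.2%) and the lowest median correlation (0.978). Whether these traits of the pool are linked was not tested. Without wild type pool 7 as well, 31 of the 38 were below 0, against 39.0% of all genes, and Ldhb and Pgm2 changed sign. In this comparison of 4 pools with 2, in which separation is easier, 18 of the 38 separated, against 6.19% of all genes. The median was -0.204, with 11 rather than 18 genes at an unadjusted p under 0.05. Without knockout pool 7 in its place (3 pools against 3), 30 were below 0, against 44.6% of all genes, 18 separated, against 7.76%, and the median was -0.317.

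In wild type pool 1 the reading of a glucose gene went with its brightness. For the 33 genes whose mean on the other 7 arrays was above the 75th percentile, the processed signal in this pool was 0.842 to 4.41 times the median of the other arrays (median 1.51), and after scaling it was the lowest of 8 in 27 of them and the highest in none. For the 5 genes below that percentile, Hk3, Pfkfb2, Pklr, Slc16a1 and Pgm2, the ratio was 2.86 to 73.1 (median 9.09), and 3 of the 5 were the highest of 8. No probe of the 38 genes was saturated on any array.

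**Figure D2:**
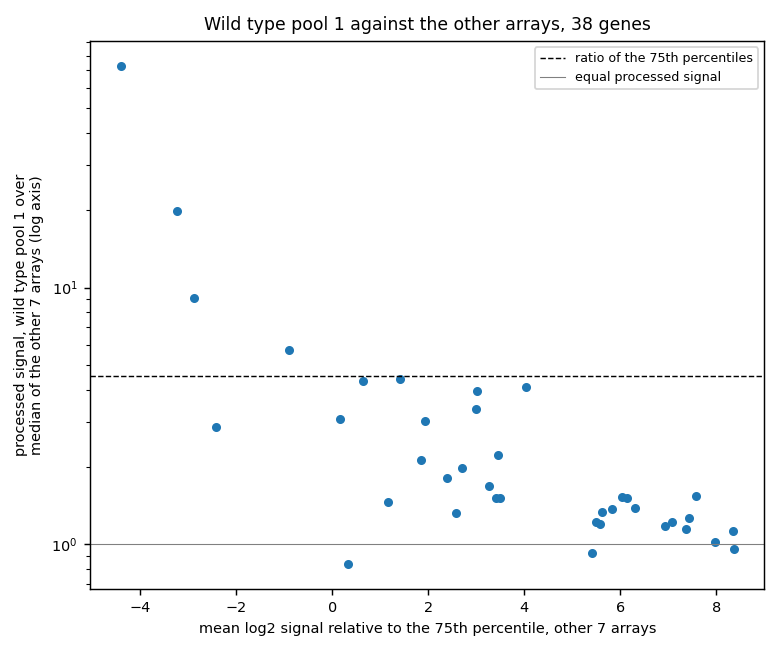
For each of the 38 genes (points), the processed signal in wild type pool 1 divided by the median of the other 7 arrays (log axis) against the mean log2 level on those 7 arrays. The dashed line marks the ratio of the 75th percentiles, 4.52, and the 33 brighter genes lie below it, while 4 of the 5 dimmer genes lie above it.

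Sequence before the transcription start was available in RefSeq's mouse table (build GRCm38.p6) for 36 of the 38 genes, with 56 starts. Slc2a3 and Slc2a4 had no entry. The core of the site that hypoxia-inducible factors bind, ACGTG or GCGTG on either strand, was searched in the 250 bases before each start. It occurred in 69.6% of the 56, against 38.6% of all 32851 promoters in the table. ACGTG alone was in 37.5% against 16.6%, and GCGTG alone in 44.6% against 28.2%. Among the 25 starts of the 17 separated genes with an entry the share was 76.0%, and among the 31 starts of the other 19 genes it was 64.5%, so these letters were common across the pathway and not limited to genes with separated pools. Promoters were not matched for base composition, and a match of 5 letters does not show that a factor binds. Below are 6 promoters of genes with separated pools, chosen after their values were seen, to show how the motif lies where it occurs and 1 stretch that lacks it. They are not a sample from which to read the share. Each is written 5′ to 3′ on the strand of its gene and ends at the base before the start, with the motif on either strand in capitals (CACGT and CACGC are its reverse complements).
Pgk1: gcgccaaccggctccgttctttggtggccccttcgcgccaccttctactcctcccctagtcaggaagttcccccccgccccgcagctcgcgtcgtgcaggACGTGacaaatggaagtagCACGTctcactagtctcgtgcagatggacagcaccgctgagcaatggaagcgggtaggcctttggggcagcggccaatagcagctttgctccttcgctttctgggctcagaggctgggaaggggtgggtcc
Slc16a3: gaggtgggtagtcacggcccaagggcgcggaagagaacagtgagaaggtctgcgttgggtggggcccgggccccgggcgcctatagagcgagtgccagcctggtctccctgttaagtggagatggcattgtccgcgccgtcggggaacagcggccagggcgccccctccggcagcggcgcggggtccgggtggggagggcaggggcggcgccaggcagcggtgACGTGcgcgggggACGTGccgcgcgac
Aldoc: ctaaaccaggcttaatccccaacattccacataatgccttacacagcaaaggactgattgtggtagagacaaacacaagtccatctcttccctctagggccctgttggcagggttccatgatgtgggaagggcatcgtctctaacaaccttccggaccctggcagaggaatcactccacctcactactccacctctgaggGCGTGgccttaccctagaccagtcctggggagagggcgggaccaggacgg
Pfkl: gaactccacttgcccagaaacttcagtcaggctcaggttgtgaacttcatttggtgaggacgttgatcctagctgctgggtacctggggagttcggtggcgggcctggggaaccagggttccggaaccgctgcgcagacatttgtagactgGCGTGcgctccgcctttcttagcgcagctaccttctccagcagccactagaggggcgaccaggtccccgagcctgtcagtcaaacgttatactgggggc
Pdk1: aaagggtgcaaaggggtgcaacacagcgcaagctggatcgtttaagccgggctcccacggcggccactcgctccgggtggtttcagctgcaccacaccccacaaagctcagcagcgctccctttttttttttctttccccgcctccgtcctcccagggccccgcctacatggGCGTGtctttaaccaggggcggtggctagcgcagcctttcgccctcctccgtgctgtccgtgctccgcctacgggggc
Eno2: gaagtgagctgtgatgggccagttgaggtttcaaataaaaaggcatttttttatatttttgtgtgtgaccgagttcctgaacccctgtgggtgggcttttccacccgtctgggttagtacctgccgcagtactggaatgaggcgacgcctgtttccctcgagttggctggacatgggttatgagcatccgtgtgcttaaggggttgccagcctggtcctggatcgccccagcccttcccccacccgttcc
The Pgk1 stretch (GRCm38.p6 chrX:106186850-106187099, + strand) and the Slc16a3 stretch (chr11:120948817-120949066, + strand) each held 2 copies of ACGTG. Those of Aldoc (chr11:78322823-78323072, + strand), Pfkl (chr10:78009808-78010057, - strand) and Pdk1 (chr2:71872974-71873223, + strand) each held 1 copy of GCGTG. The Eno2 stretch (chr6:124769674-124769923, - strand) held neither, nor did the stretch before Tpi1 or before the other start of Pdk1, which are not printed.

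Of the 3 glucose carriers, all were below 0 without wild type pool 1. Slc2a3 (GLUT3), the high-affinity carrier known from neurons and early embryos, read 3.40, 3.77, 3.34 and 3.57 in the knockout pools and 3.67, 5.04, 3.88 and 5.22 in the wild type pools. Wild type pools 2 and 7 were high, pool 5 was just above the knockout pools, and pool 1 lay among them. The difference was -0.93 ± 0.40 in 8 arrays (adjusted p = 0.735) and -1.19 ± 0.32, or 2.28-fold lower, in 7 (adjusted p = 0.363). Slc2a1 (GLUT1), the carrier of most fetal tissues, read 5.99, 5.87, 5.83 and 5.66 against 4.52, 6.19, 6.08 and 6.56. Its knockout values lay below wild type pools 2, 5 and 7 by a gap of 0.089 and above pool 1, and the difference of -0.44 ± 0.15 in 7 arrays was -0.00016 ± 0.44 in 8. Slc2a4 (GLUT4), the insulin-responsive carrier of muscle and fat, ran from 2.25 to 2.69 in the knockout pools and from 2.54 to 3.41 in wild type pools 2, 5 and 7, with overlap and a difference of -0.44 ± 0.22.

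The hexokinases trap glucose as glucose 6-phosphate, and Gpi1 converts it to fructose 6-phosphate. Hk2, the form known from insulin-sensitive tissue and as a target of hypoxia-inducible factors, read 2.81, 2.92, 2.91 and 2.28 against 2.56, 3.42, 2.98 and 3.56. Knockout pool 7 was low, the other knockout pools lay just under wild type pool 5, and the difference was -0.40 ± 0.32 in 8 arrays and -0.59 ± 0.21 in 7 (adjusted p = 0.426). Hk1, the housekeeping form, and Gpi1 overlapped between the groups on their brightest probes, at -0.30 ± 0.22 and -0.20 ± 0.12 in 7 arrays, while 1 of 2 Hk1 probes and 1 of 3 Gpi1 probes separated. Hk3, a form of blood cells, went the other way, at 0.90 ± 0.33 in 7 arrays. It was the only gene of the 38 not above background on every array, with processed signals of 17 to 93 on the 7 arrays and 3337 in wild type pool 1.

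Phosphofructokinase commits fructose 6-phosphate to glycolysis, and its 3 subunits were all below 0 in 7 arrays. Pfkp, the platelet-type subunit, read 3.23, 3.24, 3.33 and 2.33 against 2.59, 3.90, 3.64 and 4.44, a difference of -0.61 ± 0.44 in 8 arrays and -0.96 ± 0.30 in 7 (adjusted p = 0.385). Knockout pool 7 and wild type pool 7 were the extremes. Pfkl, the liver-type subunit, read 3.07, 3.13, 3.09 and 2.74 against 1.81, 3.80, 3.35 and 3.71, with a gap of 0.22 between knockout pool 2 and wild type pool 5. Its difference was -0.16 ± 0.45 in 8 arrays and -0.61 ± 0.15 in 7 (adjusted p = 0.351). Pfkm, the muscle subunit, overlapped, at -0.29 ± 0.14.

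The PFKFB enzymes make and break fructose 2,6-bisphosphate, the activator of phosphofructokinase, and they were the one group whose median was above 0 in 7 arrays (0.25). Pfkfb3, the form with the strongest bias towards making the activator, read 1.67, 1.39, 1.58 and 1.51 against 1.26, 2.89, 1.73 and 2.81. The knockout pools were close together, wild type pools 2 and 7 were high, and the difference was -0.63 ± 0.40 in 8 arrays and -0.94 ± 0.28, or 1.91-fold lower, in 7 (adjusted p = 0.380). The other Pfkfb3 probe gave -1.12, with overlap. Pfkfb1, Pfkfb2 and Pfkfb4 were at 0.21 ± 0.18, 0.29 ± 0.57 and 0.37 ± 0.37, and all 3 overlapped. Pfkfb2 in knockout pool 1, at -0.65 against -3.15 to -2.29 in the 6 other pools of the 7-array comparison, set its sign, which was -0.26 without that pool.

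The 7 genes from aldolase to phosphoglycerate mutase, which carry the first ATP-yielding step, were all below 0 in 7 arrays and separated in 5. Aldoc, the aldolase isozyme known from brain, had the smallest p of the 38 in 7 arrays. Its probe lies at mm9 chr11:78140198-78140257, and it read 2.55, 2.82, 2.59 and 1.95 against 2.68, 3.72, 3.31 and 4.17. The knockout pools lay 0.49 or more below wild type pools 2, 5 and 7, and the difference was -0.99 ± 0.38 in 8 arrays (adjusted p = 0.735) and -1.26 ± 0.26, or 2.39-fold lower, in 7 (adjusted p = 0.332). Aldoa, the muscle and general form, read 8.17, 8.28, 8.28 and 7.97 against 6.33, 8.43, 8.49 and 8.82, a difference of -0.40 ± 0.14 in 7 arrays and 0.16 ± 0.52 in 8. Here wild type pool 1 was far below every other pool, as it was in Pgk1, Tpi1 and Pgam1.

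Pgk1, which makes ATP from 1,3-bisphosphoglycerate and whose promoter held 2 copies of ACGTG, read 7.38, 7.44, 7.37 and 7.19 against 6.07, 7.80, 7.74 and 8.12. The 4 knockout values spanned little, the highest lay 0.30 below wild type pool 5, and the difference was -0.54 ± 0.13 in 7 arrays (adjusted p = 0.350) and -0.089 ± 0.45 in 8. Tpi1, which interconverts the triose phosphates, read 6.85, 6.89, 6.98 and 6.55 against 5.23, 7.23, 7.34 and 7.63, at -0.58 ± 0.15 in 7 arrays and -0.042 ± 0.51 in 8. Pgam1, the general phosphoglycerate mutase, read 6.78, 6.80, 6.84 and 6.70 against 4.99, 7.03, 7.07 and 7.30, at -0.36 ± 0.10 in 7 arrays and 0.18 ± 0.50 in 8. In all 3 genes the knockout pools were lower than wild type pools 2, 5 and 7 and higher than wild type pool 1. Gapdh (-0.20 ± 0.12) overlapped on its brightest probe, but its 7 probes were all below 0, from -0.54 to -0.20, and on 5 of them the groups separated. Among those 5 is a probe, at -0.45, that the array places on chromosome 8, while the other Gapdh probes lie on chromosome 6. The muscle mutase Pgam2 (-0.21 ± 0.15) overlapped. Gapdh, Eno1, Ldha and Pgam1 have near-identical copies elsewhere in the mouse genome, and a probe may read more than 1 of them.

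**Figure D3:**
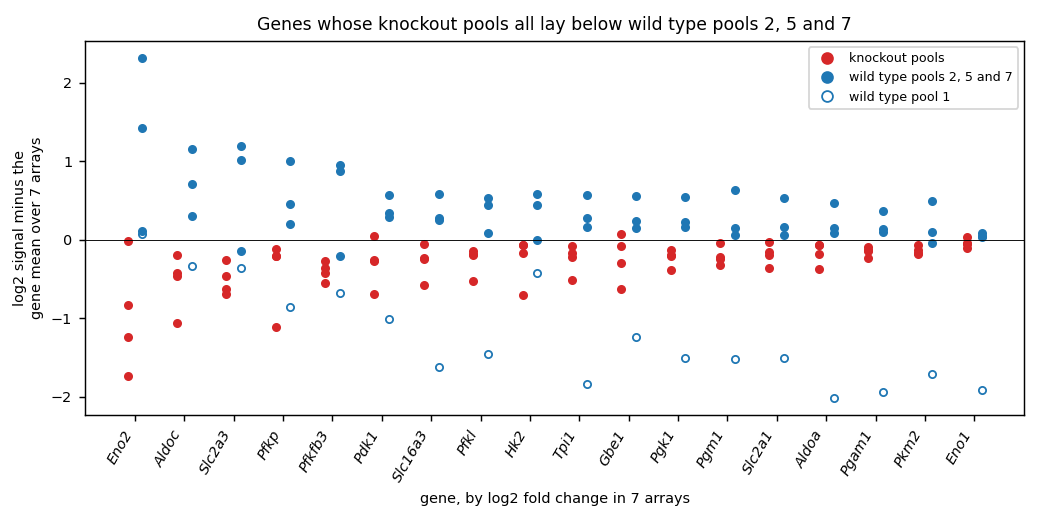
Log2 signal of the 18 genes in which all 4 knockout pools (red) lay below wild type pools 2, 5 and 7 (filled blue), as the deviation from the gene's mean over those 7 arrays, with wild type pool 1 as open circles. Genes run from Eno2, with the most negative difference at -2.24, to Eno1 at -0.11, and in all but Eno2 the open circle lies among or below the red points.

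Enolase makes phosphoenolpyruvate and pyruvate kinase turns it into pyruvate and ATP. Eno2, the isozyme known from neurons, had the most negative difference of the 38 genes (probe at mm9 chr6:124710388-124710447). It read 0.58, -0.32, 1.39 and 0.17 against 1.49, 2.83, 1.52 and 3.73. Every wild type pool, pool 1 included, was above every knockout pool, but wild type pools 1 and 5 were close to knockout pool 3. The difference was -1.94 ± 0.59 in 8 arrays (adjusted p = 0.735) and -2.24 ± 0.58, or 4.74-fold lower, in 7 (adjusted p = 0.355). The 5 neuronal markers did not share this direction, since none was below 0 in 7 arrays (median 0.58, summed level 5.25 to 6.55 in the knockout pools and 3.36 to 5.43 in wild type pools 2, 5 and 7).

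Eno1, the general enolase, read 7.32, 7.39, 7.30 and 7.26 against 5.44, 7.45, 7.41 and 7.40. Its groups separated by only 0.017, and the difference was -0.11 ± 0.085 in 7 arrays and 0.39 ± 0.47 in 8. Pkm2 (also called Pkm), a pyruvate kinase gene, read 6.13, 6.17, 6.23 and 6.12 against 4.59, 6.39, 6.26 and 6.79. It was at -0.32 ± 0.14 in 7 arrays and 0.16 ± 0.46 in 8, with a gap of 0.036. Which form of the transcript its probe reads was not examined. The muscle enolase Eno3 (-0.13 ± 0.17) overlapped, and the liver and red cell pyruvate kinase Pklr (0.44 ± 0.99) varied from -5.02 to -1.40 within the knockout pools alone.

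Lactate dehydrogenase regenerates NAD by reducing pyruvate, and the monocarboxylate carriers take lactate across the membrane. Slc16a3 (MCT4), the carrier known for lactate export from glycolytic cells, read 5.59, 5.60, 5.78 and 5.26 against 4.21, 6.11, 6.09 and 6.42. The gap to the nearest wild type pool was 0.31, and the difference was -0.65 ± 0.15, or 1.57-fold lower, in 7 arrays (adjusted p = 0.350) and -0.15 ± 0.48 in 8. Ldhb, the heart-type subunit, read 5.42, 5.36, 5.51 and 5.37 against 3.10, 5.24, 5.38 and 5.66, with wild type pools 2, 5 and 7 around the knockout pools. It was at -0.013 ± 0.12 in 7 arrays and, with the low pool 1, at 0.57 ± 0.54 in 8. Ldha, the subunit that favours lactate formation, overlapped on its brightest probe, at -0.17 ± 0.10. On the other 2 of its 3 probes, at -0.64 ± 0.17 and -0.59 ± 0.14, every knockout pool lay below wild type pools 2, 5 and 7. Slc16a1 (MCT1) was at 0.30 ± 0.24 in 7 arrays, from processed signals of only 59 to 148.

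The pyruvate dehydrogenase kinases switch off the enzyme that feeds pyruvate into the citric acid cycle, and all 4 were below 0 in 7 arrays. Pdk1, the form known as a target of hypoxia-inducible factors, read 1.57, 1.59, 1.89 and 1.15 against 0.84, 2.19, 2.13 and 2.42. Knockout pool 3 came within 0.25 of wild type pool 5, and the difference was -0.35 ± 0.39 in 8 arrays and -0.70 ± 0.18, or 1.62-fold lower, in 7 (adjusted p = 0.355). Pdk3 (-0.44 ± 0.24), Pdk4 (-0.44 ± 0.21), the form known from fasting, and Pdk2 (-0.18 ± 0.19) overlapped.

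Phosphoglucomutase makes glucose 1-phosphate, from which glycogen is built by several further enzymes, among them glycogen synthase and the branching enzyme. Gys1, the muscle glycogen synthase, read 3.05, 3.22, 3.45 and 2.74 against 1.88, 3.78, 3.45 and 4.18. Knockout pool 3 and wild type pool 5 met, although the groups separated on the other Gys1 probe (-0.74), and the difference was -0.21 ± 0.49 in 8 arrays and -0.69 ± 0.22 in 7 (adjusted p = 0.400). Gbe1, the branching enzyme, read 2.31, 2.09, 2.47 and 1.77 against 1.15, 2.54, 2.63 and 2.95, at -0.55 ± 0.19 in 7 arrays and -0.16 ± 0.42 in 8. Pgm1 read 5.89, 6.10, 5.92 and 5.82 against 4.62, 6.29, 6.20 and 6.78, at -0.49 ± 0.16 in 7 arrays and -0.038 ± 0.45 in 8. In Gbe1 and Pgm1 the knockout pools lay below wild type pools 2, 5 and 7 by 0.077 and 0.10. Pgm2 was at 0.06 ± 0.18 and overlapped. The names Pgm1 and Pgm2 are exchanged between the array's annotation and RefSeq, and RefSeq's are used.

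**Figure D4:**
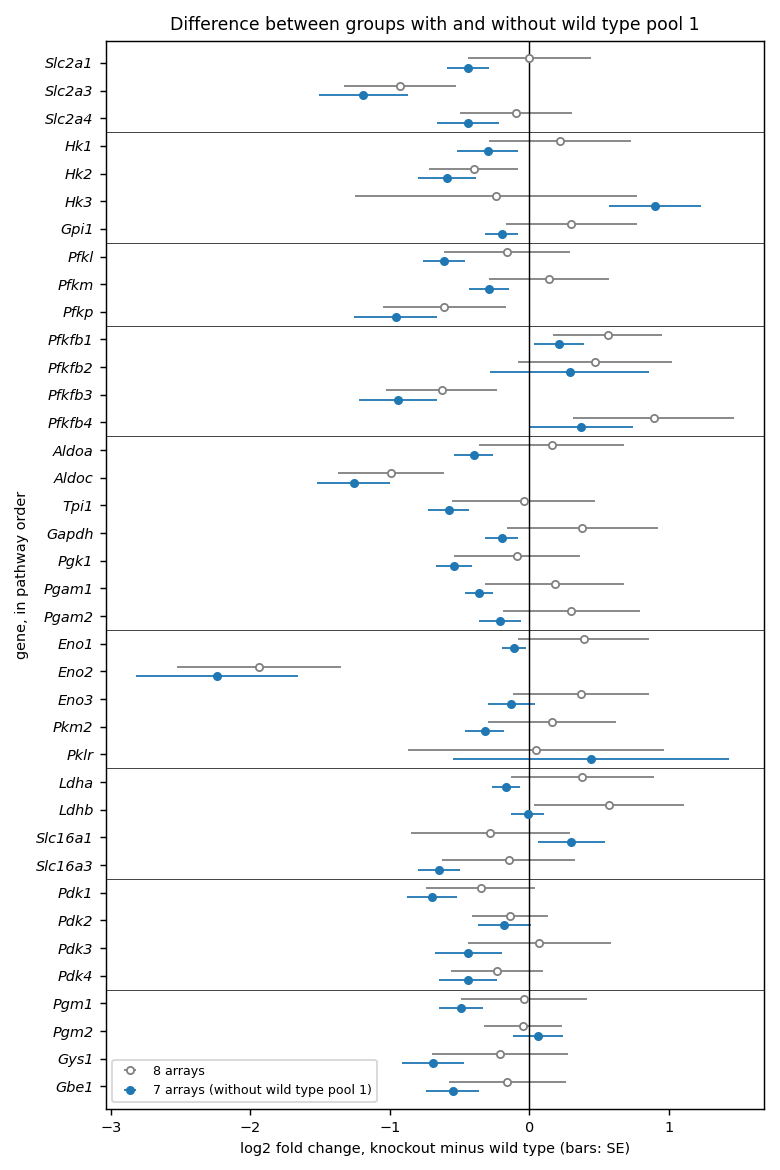
Log2 fold change, knockout minus wild type, of the 38 genes in pathway order, with bars of 1 SE, from all 8 arrays (open grey) and from the 7 arrays without wild type pool 1 (filled blue). Leaving out that pool moves 16 of the 38 across 0 and shortens most bars, and Eno2, Aldoc and Slc2a3 lie lowest in both.

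By step of the pathway, the 7-array medians were -0.44 for glucose uptake, -0.25 for hexose phosphorylation and isomerisation, -0.61 for phosphofructokinase, 0.25 for the PFKFB enzymes, -0.40 from aldolase to phosphoglycerate mutase, -0.13 for enolase and pyruvate kinase, -0.091 for lactate dehydrogenase and its carriers, -0.44 for the pyruvate dehydrogenase kinases and -0.52 for glycogen synthesis. Where a gene had more than 1 kept probe, which was so for 10 of the 38, its probes all had the same sign in 7 arrays. Over all 55 kept probes of the 38 genes 48 were below 0, against 40.9% of kept probes on the array, and 31 separated as lower, against 4.81%. Probes of a gene are not independent readings, and Gapdh alone gave 7 of the kept probes, of which 5 separated.

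The same values were computed for other genes that handle glucose 6-phosphate and pyruvate, without a test of these lists against the 38. Of 47 such genes in 6 lists, 41 were tested in 7 arrays and 0 passed the test. The difference was below 0 in 14 of the 41, against 40.7% of all genes, with a median of 0.0913. Of the 41, 3 separated as lower, against 4.88% of all genes, and 4 as higher, against 6.54%, so these counts lay near the background. The pentose phosphate pathway, which draws glucose 6-phosphate off to make NADPH and ribose, had 1 of 7 genes below 0 (median 0.112), and pyruvate import and dehydrogenase had 2 of 9 (median 0.0913). Glycogen turnover had 5 of 10 below 0 (median -0.00266), and gluconeogenesis 3 of 5 (median -0.0871). In each of these 2 lists 1 gene separated as lower and 0 as higher. Glycogen turnover reached further down than up, from -1.07 to 0.11, so lower readings were not limited to the 38. Gluconeogenesis ran from -0.25 to 0.44. In 8 arrays 42 were tested, 0 passed, 9 were below 0 and the median was 0.41.

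Bpgm and Pdhx were among the 3 with the smallest unadjusted p in 8 arrays. Bpgm, which makes 2,3-bisphosphoglycerate in red cells, was at 1.14 ± 0.59 in 8 arrays and 0.63 ± 0.43 in 7, with overlap, beside the erythroid markers that also read above 0. Pdhx, a structural subunit of pyruvate dehydrogenase, was at 0.84 ± 0.44 and 0.38 ± 0.11 (adjusted p = 0.371), higher in all 4 knockout pools than in any wild type pool.

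**Figure D5:**
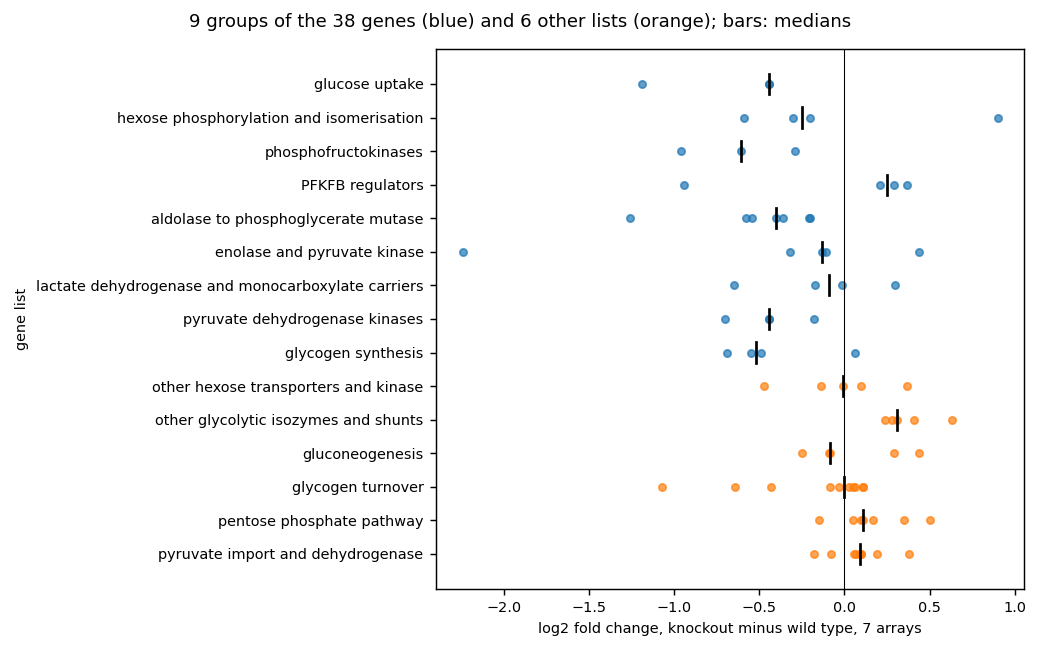
Log2 fold change in 7 arrays, knockout minus wild type, of each of the 38 genes by pathway step (blue points) and of 41 other genes in 6 lists (orange points), with a bar at each median. The medians of 8 of the 9 blue groups lie below 0, from -0.61 to -0.091, and that of the PFKFB enzymes is 0.25.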

How the data were processed

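Per the file headers, Agilent Feature Extraction 10.7.3.1 made the deposited scanner intensities (processed green signal, protocol GE1_107_Sep09, design 028005, probes placed on mm9). The authors' deposited value table differed from these processed intensities, before log2 and scaling, by at most 0.497% of the signal. Each array's log2 processed signal minus its 75th percentile over 59305 non-control spots was used, with spots of a probe averaged. A probe was kept if well above background on 3 or more arrays of a group, and each gene was read by its brightest kept probe (mean over arrays). Of 55681 probes, 26056 were named through RefSeq accessions and the rest by the array's own gene names.

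Groups were compared with limma 3.58.1 (R 4.3.3), with Benjamini-Hochberg adjustment over all genes and a threshold of 0.05, on 8 arrays and on 7 without wild type pool 1. The fit was tested on simulated data. The p-values weigh each difference between the groups against the spread between pools, and they cannot separate genotype from slide row. The 38 genes, the lists and the second comparison were chosen with earlier results of these data known. All 38 are named, and values in every pool are given for those whose groups did not overlap and for the smallest unadjusted p in each step. Outside them the rule names the 3 smallest unadjusted p, of which 1 is not reported here, and Aldh1a2. Arrays give no read depth, and their number limits the precision. The labels do not say whether equal pool numbers mark pairs. Deviations from the group means correlated at -0.153, 0.324 and -0.408 for pools 1, 2 and 7. The wild type means include the unlike pool 1, so these correlations cannot decide it. Other scalings, background correction, array weights, a pool block and leaving out each pool were tried. Exon and UTR positions of the probes were not used here.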

Additional observations from a re-analysis of the deposited data

Results flagged for a closer look

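In 12 cases a single pool lay far from the other 3 of its genotype, by Dixon's criterion at the 95% level. With 38 genes and 2 groups each, 76 groups were checked, and chance alone gives about 1 in 20, or 3.8. Wild type pool 1 accounted for 9, each a low value of a bright gene: Gpi1 at 5.56, Aldoa at 6.33, Tpi1 at 5.23, Gapdh at 6.14, Pgam1 at 4.99, Eno1 at 5.44, Ldha at 5.88, Ldhb at 3.10 and Slc16a3 at 4.21. Knockout pool 7 accounted for the other 3, again low: Hk2 at 2.28, Pfkl at 2.74 and Pfkp at 2.33. The same pool had the lowest Aldh1a2, at 0.059. Wild type pool 1 aside, its array also had the lowest median correlation with the others, at 0.978.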

How the results depend on the processing

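None of the 38 genes passed the threshold under any alternative that could be tested on 8 or on 7 arrays. What changed was the direction in the 8-array comparison, where no difference had passed. Quantile scaling put 30 of the 38 below 0 (median -0.307, all genes 0.213) and turned 15 (Hk1 -0.28, Gpi1 -0.12, Pfkm -0.33, Aldoa -0.3, Gapdh -0.096, Pgam1 -0.28, Pgam2 -0.19, Eno1 -0.04, Eno3 -0.13, Pkm2 -0.31, Ldha -0.081, Slc16a1 0.3, Pdk3 -0.23, Pdk4 0.087 and Pgm2 0.28). Array weights also put 30 below 0 (median -0.32), passed 8 genes, 1 higher and 7 lower, and turned 15 (Hk1 -0.18, Hk3 0.76, Gpi1 -0.16, Pfkm -0.23, Aldoa -0.34, Gapdh -0.15, Pgam1 -0.32, Pgam2 -0.25, Eno1 -0.085, Eno3 -0.12, Pkm2 -0.28, Ldha -0.13, Slc16a1 0.21, Pdk3 -0.32 and Pgm2 0.11). Median scaling left 5 below 0 (median 0.501, all genes 0.669) and turned 16 (Slc2a1 0.54, Slc2a4 0.44, Hk2 0.14, Hk3 0.3, Pfkl 0.38, Tpi1 0.5, Pgk1 0.45, Slc16a1 0.26, Slc16a3 0.39, Pdk1 0.2, Pdk2 0.4, Pdk4 0.31, Pgm1 0.5, Pgm2 0.49, Gys1 0.33 and Gbe1 0.38). The deposited value table moved Slc2a1 from -0.00016 to 0.00089. Normexp background, no filter and the mean of a gene's kept probes turned none of the 38. Position within the slide row as a block turned none either. Each position held 1 knockout and 1 wild type array, so the differences cannot move. The row itself coincides with genotype and was not used as a block.

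With pool number as a replicate block, 0 genes passed, 16 of the 38 were below 0 (median 0.0697), and 5 turned (Slc2a1 0.084, Tpi1 0.066, Pgk1 0.0068, Pgm1 0.044 and Pgm2 0.073); the block changed no call.

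Leaving out single pools of the 8 gave, from without wild type pool 1 to without wild type pool 7, Slc2a1 -0.44 to 0.24, Slc2a4 -0.44 to 0.17, Hk1 -0.3 to 0.46, Gpi1 -0.2 to 0.54, Pfkm -0.29 to 0.37, Aldoa -0.4 to 0.43, Tpi1 -0.58 to 0.21, Gapdh -0.2 to 0.66, Pgk1 -0.54 to 0.14, Pgam1 -0.36 to 0.41, Pgam2 -0.21 to 0.54, Eno3 -0.13 to 0.62, Pkm2 -0.32 to 0.42, Ldha -0.17 to 0.62, Ldhb -0.013 to 0.84, Slc16a3 -0.65 to 0.09, Pdk3 -0.44 to 0.32, Pdk4 -0.44 to 0.015, Pgm1 -0.49 to 0.23, Gys1 -0.69 to 0.077 and Gbe1 -0.55 to 0.047. With other pools at 1 or both ends, the ranges were Hk3 -0.75 to 0.9, Pfkl -0.61 to 0.05, Pfkfb2 -0.079 to 0.76, Eno1 -0.11 to 0.56, Pklr -0.47 to 0.82, Slc16a1 -0.54 to 0.3 and Pgm2 -0.18 to 0.081.

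On 7 arrays 30 to 33 of the glucose genes were below 0 under every setting run. The share of all genes below 0 ran from 39.0% to 50.4%, except with median scaling. There it was 73.9%, beside 32 of the glucose genes, so that count sits on a general shift. Median scaling passed 22 genes, gave a median of -0.585 (all genes -0.153) and put Pgm2 at -0.15, and normexp put Ldhb at 0.034. Leaving out 1 more pool passed 0 to 8 genes, gave medians of -0.452 to -0.204, and moved Pfkfb2 from -0.26 to 0.58, Pklr from -0.13 to 1.22, Ldhb from -0.11 to 0.10 and Pgm2 from -0.076 to 0.19. The 8 passed without wild type pool 5, and 1 passed without knockout pool 7. The cause of these changes was not tested. With 4 pools against 3 or 4, all arrays of a genotype in 1 row of the slide, and dim probes such as Hk3, Pklr and Slc16a1 near background, small differences could not be resolved.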
